A study of Mus musculus with 22 samples.

Results

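Aminoacyl-tRNA synthetases are the enzymes that load each amino acid onto its tRNA. The genes described are 39 members of this family measured in mouse embryonic stem cells: 20 encode enzymes of the cytosol, 16 encode mitochondrial enzymes, whose symbols end in 2, and 3 encode proteins that hold a complex of cytosolic enzymes together (Aimp1, Aimp2 and Eef1e1). They were chosen by gene symbol, as a family defined by function, out of 24819 gene symbols in the expression tables. As background, cytosolic and mitochondrial protein synthesis use largely separate sets of synthetases, although some genes, such as Gars and Kars, serve both. These are counted here as cytosolic. The mitochondrial enzymes are made from nuclear genes and imported. Several cytosolic enzymes sit in a multisynthetase complex around the scaffold proteins. Many cytosolic synthetase genes are known targets of ATF4, the transcription factor of the integrated stress response, which binds C/EBP-ATF response elements and also drives genes of amino acid synthesis and uptake.

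Cells of the E14 line, grown on gelatin with the cytokine LIF, had received small interfering RNAs (siRNAs) by lipid transfection 3 days before RNA was taken, and polyadenylated RNA was sequenced from stranded libraries. The siRNAs were aimed at Rpl14 or Rpl11, which encode proteins of the large ribosomal subunit, at Dux, which encodes a transcription factor of early embryos, or were the control named siNT, an abbreviation that the labels do not spell out. Each single knockdown was given together with siNT, the pairs were siRpl14 with siRpl11 and siRpl14 with siDux, and the control cells received siNT alone. All groups therefore carry the same cell line, medium and transfection, and differ in the siRNA.

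The 22 libraries fall into 3 sets, read from the style of their titles. Set 1 has siRpl14, siRpl11, siRpl14 with siRpl11 and siNT in 2 libraries each. Set 2 has siRpl14, siRpl14 with siDux, siDux and siNT in 1 library each and shares its deposited table with set 1. Set 3 has its own table, with 2 libraries each of siRpl14, siRpl14 with siDux, siDux and siNT and 1 each of siRpl11 and siRpl14 with siRpl11. Values are FPKM (fragments scaled to transcript length and to library size), a scale per length on which levels of different genes can be set beside each other. The tables hold no fragment counts, so the depth is unknown. Whether replicates were grown as separate cultures is not in the labels, and the p-values cover no more than the spread among these libraries, which may be technical.

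In set 1, Rpl14 was left at 60.2% and 27.1% of the siNT mean in the siRpl14 libraries, and Rpl11 at 34.9% and 15.2% in the siRpl11 libraries. With both siRNAs, Rpl14 was at 15.6% and 35.3% and Rpl11 at 13.2% and 33.4%. In sets 2 and 3, 17.7% to 35.1% of Rpl14 and 19.2% to 23.7% of Rpl11 were left where they were targeted. Dux was at 0.0546 FPKM with siDux, against 0.306 FPKM with siNT, in set 2, and was listed at 0 in the siDux and siNT libraries of set 3, which leaves siDux unchecked there. Replicates of set 1 correlated at 0.976 to 0.98 across genes and those of set 3 at 0.813 to 0.853. Of all genes, 30.1% to 32.1% were listed at 0 in the libraries of sets 1 and 2 and 50.5% to 56.2% in those of set 3, and 0 to 6 members were listed at 0 in a library of set 3. Of 8 embryonic stem cell markers, 1 rose and 3 fell with siRpl14 in set 1, 1 rose and 4 fell with siRpl11, and 1 rose and 6 fell with both, in comparisons where 13.4%, 28.4% and 25% of all genes fell. Their summed level was 5748 and 5205 FPKM with siRpl14, 6537 and 6779 FPKM with siRpl11 and 5668 and 5828 FPKM with both, against 8689 and 7774 FPKM with siNT. Dppa5a made up most of this sum in each library, with 5243 and 4351 FPKM in the siNT libraries. With siRpl11, Pou5f1 and Sox2 lay above both siNT libraries and the other markers below them. The summed level of 9 differentiation markers was 62.7 and 84.4 FPKM with siRpl14, 103.9 and 122 FPKM with siRpl11 and 118 and 95.7 FPKM with both, against 27.3 and 29.2 FPKM with siNT. In the knockdown libraries Otx2 made up most of this sum. Otx2 was at 43.9 and 52.2 FPKM with siRpl14 and 91.8 and 104.9 FPKM with siRpl11. With both it was at 101 and 83.0 FPKM, against 9.17 and 12.6 FPKM with siNT. Krt8 and Krt18 were lower with siRpl11 than with siNT, and Pax6 was higher. Among 6 fibroblast markers, which would come from feeder cells, Thy1 alone was above 1 FPKM in set 1 and Postn was listed at 0 in every library. The summed level of these 6 was 4.64 to 8.98 FPKM in the 6 knockdown libraries, against 15.5 and 15.6 FPKM with siNT. The summed marker levels differed from siNT in every knockdown group of set 1, and their part in the results of set 1 given below was not tested. In such bulk samples, fewer cells of a type and less RNA per cell cannot be told apart.

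The core of the C/EBP-ATF response element, through which ATF4 acts, was found in promoters of cytosolic enzymes and in none of the matched mitochondrial ones. RefSeq promoters (GRCm38.p6, 250 bases before to 50 after the start) were matched for 30 of the 39 genes, Mars under its RefSeq symbol Mars1. The core TGATGNAA, searched on both strands, stood in 5 of 13 matched cytosolic promoters (Aars, Gars, Iars, Tars and Yars), in 0 of 14 mitochondrial ones, in 0 of 3 scaffold ones and in 3.97% of all 32851 promoters. All 5 are among the 8 matched promoters of the 12 cytosolic enzymes widely reported as ATF4 targets (Aars, Cars, Eprs, Gars, Iars, Lars, Mars, Nars, Sars, Tars, Wars and Yars). The E-box CACGTG, the site of the MYC family, which was searched likewise and can share 2 bases with the core, stood in 4 of 13 cytosolic promoters (Aars, Farsb, Iars and Tars), in 1 of 14 mitochondrial ones (Ears2) and in 7.15% of all promoters. A match describes the letters and is not a measured binding site. Windows from 60 bases before to 20 after the start (from 120 before for Aars, to hold both its matches) are printed below on the gene's own strand, 5′ to 3′, with the core in capitals on either strand. The first 5 are the promoters with the core, Sars is the cytosolic gene that fell most with siRpl14, and Lars2 and Cars2 are mitochondrial genes that moved in opposite directions. They lie at chr8:111033722-111033861 (Aars, plus strand), chr6:55037941-55038020 (Gars, plus), chr13:49682070-49682149 (Iars, plus), chr15:11399639-11399718 (Tars, minus), chr4:129189843-129189922 (Yars, plus), chr3:108445240-108445319 (Sars, minus), chr9:123366867-123366946 (Lars2, plus) and chr8:11550752-11550831 (Cars2, minus).
Aars: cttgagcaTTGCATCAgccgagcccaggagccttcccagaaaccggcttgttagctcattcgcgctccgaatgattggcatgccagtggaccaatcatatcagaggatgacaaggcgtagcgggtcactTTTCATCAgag
Gars: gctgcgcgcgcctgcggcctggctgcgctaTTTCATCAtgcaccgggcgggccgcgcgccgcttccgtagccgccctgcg
Iars: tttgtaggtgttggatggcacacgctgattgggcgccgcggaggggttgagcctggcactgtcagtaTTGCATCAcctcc
Tars: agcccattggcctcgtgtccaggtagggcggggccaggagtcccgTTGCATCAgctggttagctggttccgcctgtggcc
Yars: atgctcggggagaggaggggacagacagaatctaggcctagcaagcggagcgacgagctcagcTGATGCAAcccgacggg
Sars: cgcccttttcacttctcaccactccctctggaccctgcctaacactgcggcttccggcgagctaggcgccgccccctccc
Lars2: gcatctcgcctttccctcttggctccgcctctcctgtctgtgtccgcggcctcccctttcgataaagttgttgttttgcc
Cars2: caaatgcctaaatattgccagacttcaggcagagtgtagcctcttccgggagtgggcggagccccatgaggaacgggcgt
Counted from the start as base 1, the core began at -112 and at 10 in Aars, at -30 in Gars, at 8 in Iars, at -15 in Tars and at 4 in Yars. The Sars, Lars2 and Cars2 promoters held no match, which says only that these letters are not in that window.

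With siNT in set 1, cytosolic enzymes were the more abundant class. Their means ran from 38.5 ± 7.48 FPKM for Wars, the tryptophan enzyme, to 200 ± 12.6 FPKM for Gars, the glycine enzyme (SD, n = 2). Gars and Nars (198 ± 0.742 FPKM) did not differ beyond their spread, nor did Kars (169 ± 7.87 FPKM), Aars (169 ± 11.7 FPKM) and Eprs (165 ± 1.18 FPKM), which followed them. Among mitochondrial enzymes, Lars2, which charges mitochondrial leucine tRNA, stood apart at 163 ± 10.2 FPKM, a level that lay within the spread of those of Aars and Kars. The other 15 mitochondrial genes ran from 2.08 ± 0.625 FPKM for Wars2 to 39.5 ± 1.68 FPKM for Iars2. In the siNT libraries of set 3 the order was different: Aimp2 led the members with 162 ± 25.6 FPKM, Nars followed with 129 ± 2.47 FPKM, and Lars2 was at 7.13 ± 2.00 FPKM. The sets come from separate tables, so levels were not tested between them.

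Knockdown of Rpl14 lowered many cytosolic synthetase transcripts. In set 1, 9 of 20 cytosolic genes fell and 0 rose at an adjusted p under 0.05, where 13.4% of all 12129 genes tested fell and 18.1% rose (31.5% called in all). The median log2 fold change of siRpl14 over siNT was -0.34 for the cytosolic genes and 0.035 for all genes, and 15 of the 20 had both siRpl14 libraries below both siNT libraries, where 32.9% of all genes did. All 9 genes that fell (Sars, Nars, Aars, Yars, Gars, Eprs, Mars, Lars and Tars) belong to the 12 reported ATF4 targets, whose median was -0.57. None of the 8 other cytosolic enzymes was called, and their median was -0.10. The list of 12 was chosen with earlier results of these data known. The split between the 12 and the other 8, here and below, is therefore a description and not a test. Over all 39 members 13 were called, a share of 33.3% that lies near the share of all genes. The count of cytosolic genes rested on few libraries. Fewer passed without either siNT library or without replicate 2 of siRpl14, and fewer of all genes passed in these refits too. A refit of this kind leaves 1 library in a group. The cytosolic median stayed between -0.48 and -0.25 when a library was left out. Fold changes are on the scale of log2(FPKM + 1), fitted with limma across all genes with Benjamini-Hochberg adjustment, and the ± beside each is its SE.

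Sars, which charges serine tRNA, stood at 71.7 and 41.2 FPKM with siRpl14, 67.2 and 42.9 FPKM with siRpl11 and 40.9 and 61.7 FPKM with both, against 113 and 113 FPKM with siNT. Every knockdown library was below both siNT libraries, and within each knockdown pair the 2 libraries lay far apart. Its log2 fold change was -1.04 ± 0.30 with siRpl14 (adjusted p = 0.0353), -1.06 ± 0.30 with siRpl11 (adjusted p = 0.0251) and -1.15 ± 0.30 with both (adjusted p = 0.02) by limma. Each of these calls was lost without either siNT library or without the lower library of its knockdown pair, with an adjusted p of up to 0.206. The libraries with less of the targeted transcript left were the lower ones for Sars in all 3 pairs, and the part of knockdown depth in its level was not tested.

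Nars, which charges asparagine tRNA, stood at 123 and 96.5 FPKM with siRpl14, 121 and 97.8 FPKM with siRpl11 and 95.4 and 107 FPKM with both, against 197 and 198 FPKM with siNT. Aars, the alanine enzyme, was measured at 112 and 86.2 FPKM with siRpl14, 103 and 97.5 FPKM with siRpl11 and 90.7 and 98.4 FPKM with both, against 161 and 177 FPKM with siNT. For both genes the 6 knockdown libraries lay below the 2 siNT libraries with a wide gap. The log2 fold change of Nars was -0.86 ± 0.15 with siRpl14 (adjusted p = 0.00673), -0.86 ± 0.15 with siRpl11 (adjusted p = 0.0047) and -0.97 ± 0.15 with both (adjusted p = 0.00404) by limma, and that of Aars was -0.77 ± 0.14 with siRpl14 (adjusted p = 0.00712), -0.75 ± 0.14 with siRpl11 (adjusted p = 0.00553) and -0.83 ± 0.14 with both (adjusted p = 0.00484). The Aars calls held in every refit, and the Nars call with siRpl14 was lost without replicate 1 of siNT (adjusted p = 0.0542).

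Yars, the tyrosine enzyme, had 53.0 and 39.9 FPKM with siRpl14, 44.5 and 42.3 FPKM with siRpl11 and 38.4 and 45.9 FPKM with both, against 74.5 and 81.2 FPKM with siNT. Gars reached 142 and 123 FPKM with siRpl14, 128 and 122 FPKM with siRpl11 and 123 and 121 FPKM with both, against 191 and 209 FPKM with siNT. Neither gene's knockdown and siNT libraries overlapped. For Yars the log2 fold change was -0.75 ± 0.15 with siRpl14 (adjusted p = 0.0111), -0.83 ± 0.15 with siRpl11 (adjusted p = 0.00556) and -0.87 ± 0.15 with both (adjusted p = 0.0056) by limma. Gars changed by -0.59 ± 0.11 with siRpl14 (adjusted p = 0.00758), -0.68 ± 0.11 with siRpl11 (adjusted p = 0.00384) and -0.71 ± 0.11 with both (adjusted p = 0.00385), with the 3 knockdown groups within each other's spread. With siRpl14, the Gars call was lost without replicate 2 of siRpl14 (adjusted p = 0.0504) and the Yars call without either siNT library or replicate 2 of siRpl14 (adjusted p up to 0.0667).

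Eprs, which charges both glutamate and proline tRNAs and belongs to the multisynthetase complex, was at 119 and 102 FPKM with siRpl14, 115 and 97.9 FPKM with siRpl11 and 101 and 110.1 FPKM with both, against 165 and 166 FPKM with siNT. Mars, the methionine enzyme of the same complex, had 70.9 and 56.6 FPKM with siRpl14, 63.0 and 61.4 FPKM with siRpl11 and 57.0 and 59.9 FPKM with both, against 91.5 and 95.8 FPKM with siNT. Both genes were lower in each knockdown library than in either siNT library. In limma, Eprs changed by -0.59 ± 0.12 with siRpl14 (adjusted p = 0.0111), -0.64 ± 0.12 with siRpl11 (adjusted p = 0.00595) and -0.64 ± 0.12 with both (adjusted p = 0.00662) on the log2 scale. The log2 fold change of Mars was -0.56 ± 0.12 with siRpl14 (adjusted p = 0.0133), -0.58 ± 0.12 with siRpl11 (adjusted p = 0.00805) and -0.67 ± 0.12 with both (adjusted p = 0.00619). Lars, the leucine enzyme of the complex, and Tars, the threonine enzyme, completed the genes that fell with siRpl14, by 0.53 ± 0.14 (adjusted p = 0.0228) and 0.37 ± 0.091 (adjusted p = 0.0203) on the log2 scale in limma. These 4 calls with siRpl14 were lost without either siNT library or replicate 2 of siRpl14, with an adjusted p of up to 0.0735 for Eprs, 0.0745 for Mars, 0.131 for Lars and 0.113 for Tars.

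**Figure D1:**
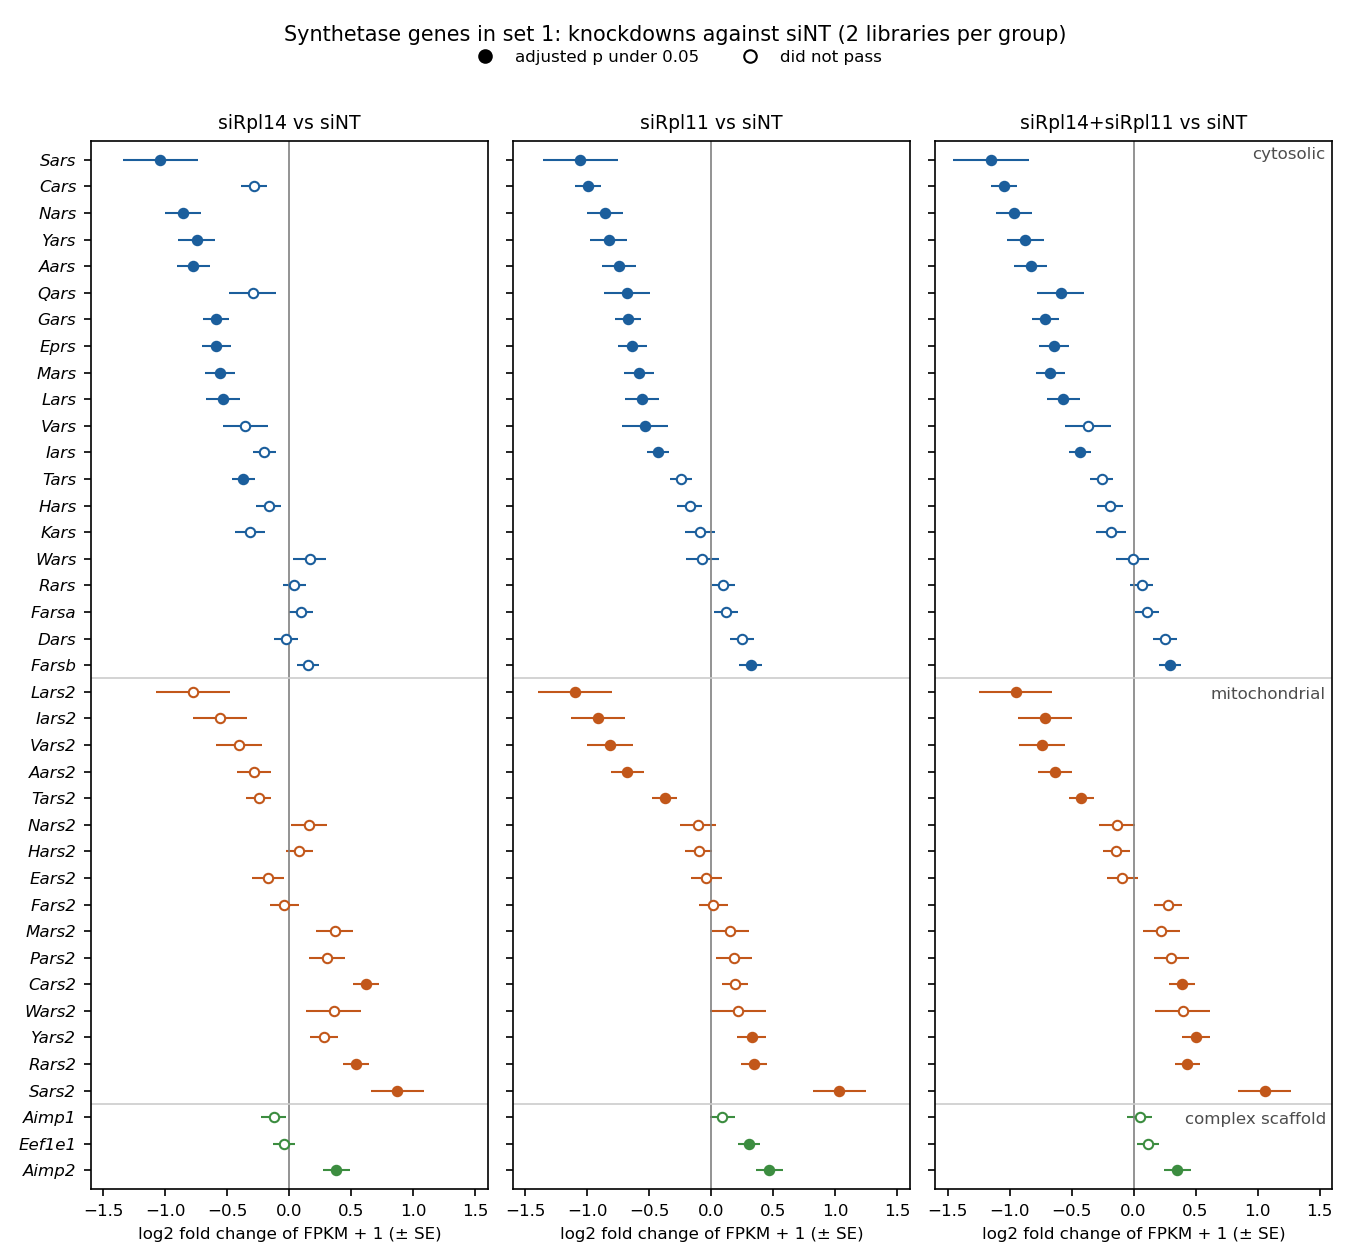
Log2 fold change against siNT with its SE, on the scale of log2(FPKM + 1), for all 39 genes in the 3 knockdowns of set 1 (2 libraries a group), arranged by role. Filled points passed an adjusted p under 0.05 in limma and open points did not. Most filled cytosolic points lie below 0, while filled mitochondrial points lie on both sides once Rpl11 was knocked down.

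Knockdown of Rpl11, alone or with Rpl14, also lowered cytosolic synthetase transcripts. It was compared with the same 2 siNT libraries as siRpl14, so the comparisons are not independent of each other. In set 1, 12 of 20 cytosolic genes fell and 1 rose, where 28.4% of all genes fell and 16% rose (44.3% called in all). The cytosolic median log2 fold change was -0.55, against -0.11 for all genes, and 15 genes had both siRpl11 libraries below both siNT libraries, where 46.2% of all genes did. Of the 12 reported ATF4 targets 10 fell and 0 rose, with a median of -0.66, and of the other 8 cytosolic enzymes 2 fell and 1 rose. With both siRNAs 11 cytosolic genes fell and 1 rose, where 25% of all genes fell and 16.6% rose (41.6% called in all), and the medians were -0.50 for cytosolic genes and -0.067 for all genes. Here too 15 lay below siNT without overlap, where 43.3% of all genes did. With either siNT library left out, fewer cytosolic genes passed in each of these comparisons, and fewer of all genes did too. The same held for siRpl11 without its replicate 2 and for both siRNAs without replicate 1 of the pair. Such refits leave 1 library in a group. With a library left out, the cytosolic median stayed between -0.625 and -0.446 with siRpl11 and between -0.568 and -0.388 with both. The split of all called genes depended on scaling. With siRpl14, 57.3% of called genes were higher with the deposited scale and 50% after quantile normalization. The share that was higher with siRpl11 was 36%, against 52.3% after quantile normalization, and with both siRNAs it was 39.8%, against 52.8%. Quantile normalization also moved the median of all genes with siRpl11 to 0.017, and the cytosolic counts stayed within 1.5 times their main value.

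In none of the comparisons with siNT in set 1 did 14 of the 39 genes pass: the cytosolic Dars, Farsa, Hars, Kars, Rars and Wars, the mitochondrial Ears2, Fars2, Hars2, Mars2, Nars2, Pars2 and Wars2, and Aimp1. Their log2 fold changes ran from -0.32 to 0.37 with siRpl14, from -0.18 to 0.24 with siRpl11 and from -0.19 to 0.40 with both. Rars, the arginine enzyme, is an example, at 104 and 92.7 FPKM with siRpl14, 104 and 100.2 FPKM with siRpl11 and 100.3 and 99.5 FPKM with both, against 95.3 and 95.5 FPKM with siNT. The set 1 libraries lay within a narrow band, with a log2 fold change of 0.041 ± 0.094 for siRpl14 (limma, adjusted p = 0.754). In the other sets Rars was lower with siRpl14: set 2 had 95.3 FPKM with siRpl14, against 116 FPKM with siNT, and set 3 had 31.9 and 34.4 FPKM with siRpl14, against 59.9 and 57.0 FPKM with siNT (-0.80 ± 0.23 on the log2 scale, limma, adjusted p = 0.216). Farsb, the beta subunit of the phenylalanine enzyme, was the cytosolic gene that rose, by 0.32 ± 0.09 with siRpl11 (limma, adjusted p = 0.0244) and by 0.30 ± 0.09 with both (adjusted p = 0.0323). Neither Farsb call held under quantile normalization (adjusted p = 0.0756 and 0.0659 in limma).

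Cars, which charges cysteine tRNA, separated the siRNAs. It stood at 45.7 and 46.1 FPKM with siRpl14, 29.0 and 26.3 FPKM with siRpl11 and 25.1 and 28.3 FPKM with both, against 53.9 and 58.3 FPKM with siNT. The siRpl14 libraries lay just under the siNT libraries, and the 4 libraries with siRpl11 lay far below both groups. The log2 fold change was -0.28 ± 0.11 with siRpl14 (adjusted p = 0.0763), -0.995 ± 0.11 with siRpl11 (adjusted p = 0.00226) and -1.05 ± 0.11 with both (adjusted p = 0.00244) by limma. The direct comparison of siRpl14 with siRpl11 gave 0.71 ± 0.11 (limma, adjusted p = 0.00652), where 13.4% of all genes passed. Against siRpl14 alone, the pair of siRNAs lowered Cars by a further 0.76 ± 0.11 (adjusted p = 0.00942), where 7.24% of all genes passed. The Cars call between siRpl14 and siRpl11 was lost without replicate 2 of siRpl11. That between the pair and siRpl14 was lost without replicate 2 of siRpl14 or replicate 1 of the pair. In these refits, which leave 1 library in a group, fewer of all genes passed too. In the other table, Cars was at 8.03 FPKM in the single siRpl11 library of set 3 and 17.7 FPKM in the single library with both siRNAs, against 16.8 and 18.9 FPKM with siNT.

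Iars, the isoleucine enzyme, Qars, the glutamine enzyme, and Vars, the valine enzyme, also fell with siRpl11. Qars was at 80.8 and 62.5 FPKM with siRpl14, 61.8 and 47.3 FPKM with siRpl11 and 49.9 and 66.8 FPKM with both, against 88.2 and 86.6 FPKM with siNT, and replicate 1 of each single knockdown was higher than replicate 2. Its log2 fold change was -0.30 ± 0.19 with siRpl14 (adjusted p = 0.251), -0.68 ± 0.19 with siRpl11 (adjusted p = 0.0217) and -0.59 ± 0.19 with both (adjusted p = 0.0374) by limma. Iars changed by -0.20 ± 0.09 with siRpl14 (adjusted p = 0.119), -0.43 ± 0.09 with siRpl11 (adjusted p = 0.00837) and -0.43 ± 0.09 with both (adjusted p = 0.00947). With siRpl11, the Iars call was lost without replicate 2 of siRpl11 (adjusted p = 0.0698), and the Qars call without that library or either siNT library (adjusted p up to 0.134). The Vars call with siRpl11 (-0.54 ± 0.18, adjusted p = 0.045 in limma) did not hold with no filter on low values (adjusted p = 0.0738) or with median-ratio scaling (adjusted p = 0.0729).

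When siRpl14 was added to siRpl11, 0 of 39 members passed between the pair and siRpl11 alone in limma, with 0 at an unadjusted p under 0.05. Of all genes 0 passed, with 3.19% at an unadjusted p under 0.05. Rpl14 itself did not pass, although it stood at 1465 and 1447 FPKM with siRpl11 and 232 and 523.5 FPKM with both. The comparison thus missed a known change, and its result cannot show that siRpl14 adds nothing to siRpl11. Between siRpl14 and siRpl11, 3 members passed: Cars, Cars2, which was higher by 0.43 ± 0.10 on the log2 scale (limma, adjusted p = 0.0329), and Eef1e1, which was lower by 0.35 ± 0.088 (adjusted p = 0.0394). The calls of Cars2 and Eef1e1 were lost whichever library of the fit was left out, and after quantile normalization (adjusted p = 0.132 and 0.0622). The test of whether the effects of the 2 siRNAs add up called 0 members (4.49% of all genes), and 13 members had an unadjusted p under 0.05 in it, as did 29.1% of all genes. Without replicate 1 of siRpl14, the library with 60.2% of Rpl14 left, 7 members passed that test, where 10% of all genes did.

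The mitochondrial enzymes of set 1 moved in both directions. With siRpl14 in set 1, 3 of 16 rose (Sars2, Cars2 and Rars2) and 0 fell, where 18.1% of all genes rose and 13.4% fell. With siRpl11, 3 rose (Sars2, Rars2 and Yars2) and 5 fell (Lars2, Iars2, Vars2, Aars2 and Tars2), where 16% of all genes rose and 28.4% fell. With both, 4 rose (Sars2, Rars2, Yars2 and Cars2) and 5 fell (Lars2, Iars2, Vars2, Aars2 and Tars2), where 16.6% of all genes rose and 25% fell. The share of the 16 that rose with siRpl14 (18.8%) and the shares that rose and fell with siRpl11 (18.8% and 31.2%) lie near those of all genes. Without replicate 1 of siNT fewer of the 16 passed with siRpl14, and fewer of all genes did too. The same held for siRpl11 without its replicate 2 and for both siRNAs without replicate 1 of the pair. Each of these refits leaves 1 library in a group. The median log2 fold change of the 16 was 0.12 with siRpl14. It was -0.012 with siRpl11 and 0.067 with both, values that quantile normalization turned to 0.16 and 0.21.

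Sars2, the mitochondrial serine enzyme, was at 14.3 and 16.4 FPKM with siRpl14, 14.5 and 20.4 FPKM with siRpl11 and 19.7 and 15.7 FPKM with both, against 6.53 and 9.58 FPKM with siNT. It was higher in every knockdown library than in both siNT libraries, the opposite of its cytosolic counterpart Sars. The log2 fold change was 0.87 ± 0.21 with siRpl14 (adjusted p = 0.0204), 1.03 ± 0.21 with siRpl11 (adjusted p = 0.00825) and 1.06 ± 0.21 with both (adjusted p = 0.00865) by limma. Rars2, the mitochondrial arginine enzyme, had 30.1 and 28.1 FPKM with siRpl14, 24.8 and 25.6 FPKM with siRpl11 and 27.5 and 26.4 FPKM with both, against 18.7 and 20.8 FPKM with siNT, again with no overlap between knockdown and siNT libraries. Its log2 fold change was 0.54 ± 0.10 with siRpl14 (adjusted p = 0.00953), 0.34 ± 0.10 with siRpl11 (adjusted p = 0.03) and 0.43 ± 0.10 with both (adjusted p = 0.0144). Without replicate 1 of siNT all 6 of these calls were lost, with an adjusted p of up to 0.136 for Sars2 and 0.154 for Rars2 over the libraries left out.

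Cars2, the mitochondrial cysteine enzyme, stood at 19.6 and 18.8 FPKM with siRpl14, 14.5 and 13.5 FPKM with siRpl11 and 15.7 and 16.8 FPKM with both, against 11.9 and 12.4 FPKM with siNT. The siRpl14 libraries were the highest and the siNT libraries the lowest. It rose with siRpl14 by 0.62 ± 0.10 (limma, adjusted p = 0.00629) and with both siRNAs by 0.39 ± 0.10 (adjusted p = 0.0206; up to 0.0967 when a library of these groups was left out), and its value with siRpl11 was 0.19 ± 0.10 (adjusted p = 0.169). Yars2, the mitochondrial tyrosine enzyme, rose by 0.32 ± 0.11 with siRpl11 (limma, adjusted p = 0.0486) and by 0.50 ± 0.11 with both siRNAs (adjusted p = 0.012). Its call with siRpl11 did not hold with a pseudocount of 5 (adjusted p = 0.0504) or without the filter on low values (adjusted p = 0.0662). In all it was lost under 11 of 16 alternatives, 7 of them with a library left out, with an adjusted p of up to 0.237.

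Lars2 varied widely between libraries of a group. It stood at 114 and 78.0 FPKM with siRpl14, 81.8 and 69.2 FPKM with siRpl11 and 59.6 and 117 FPKM with both, against 170 and 156 FPKM with siNT. All knockdown libraries were below the siNT libraries, and the pair with both siRNAs spanned the whole knockdown range. The log2 fold change was -0.78 ± 0.30 with siRpl14 (adjusted p = 0.0783), -1.10 ± 0.30 with siRpl11 (adjusted p = 0.02) and -0.95 ± 0.30 with both (adjusted p = 0.035) by limma. Both calls were lost without either siNT library or the lower knockdown library (adjusted p up to 0.183). In each knockdown pair the library with less of the targeted transcript left had the lower Lars2 level, as for Sars, and the part of knockdown depth was not tested.

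Iars2, the mitochondrial isoleucine enzyme, had 32.1 and 21.9 FPKM with siRpl14, 24.4 and 17.2 FPKM with siRpl11 and 21.1 and 26.5 FPKM with both, against 40.7 and 38.3 FPKM with siNT. Vars2, the mitochondrial valine enzyme, was at 5.32 and 3.91 FPKM with siRpl14, 3.47 and 2.93 FPKM with siRpl11 and 2.89 and 4.06 FPKM with both, against 6.02 and 6.77 FPKM with siNT. Both were lower in every knockdown library than in the siNT libraries. In limma, Iars2 changed by -0.56 ± 0.22 with siRpl14 (adjusted p = 0.0831), -0.91 ± 0.22 with siRpl11 (adjusted p = 0.0129) and -0.72 ± 0.22 with both (adjusted p = 0.032), and Vars2 by -0.41 ± 0.19 with siRpl14 (adjusted p = 0.124), -0.82 ± 0.19 with siRpl11 (adjusted p = 0.011) and -0.74 ± 0.19 with both (adjusted p = 0.0172), on the log2 scale. Their calls were lost without either siNT library or the lower knockdown library, with an adjusted p of up to 0.173 for Iars2 and 0.118 for Vars2. Aars2 and Tars2, the mitochondrial alanine and threonine enzymes, fell with siRpl11 by 0.68 ± 0.14 (adjusted p = 0.00732) and 0.38 ± 0.099 (adjusted p = 0.0183) in limma.

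**Figure D2:**
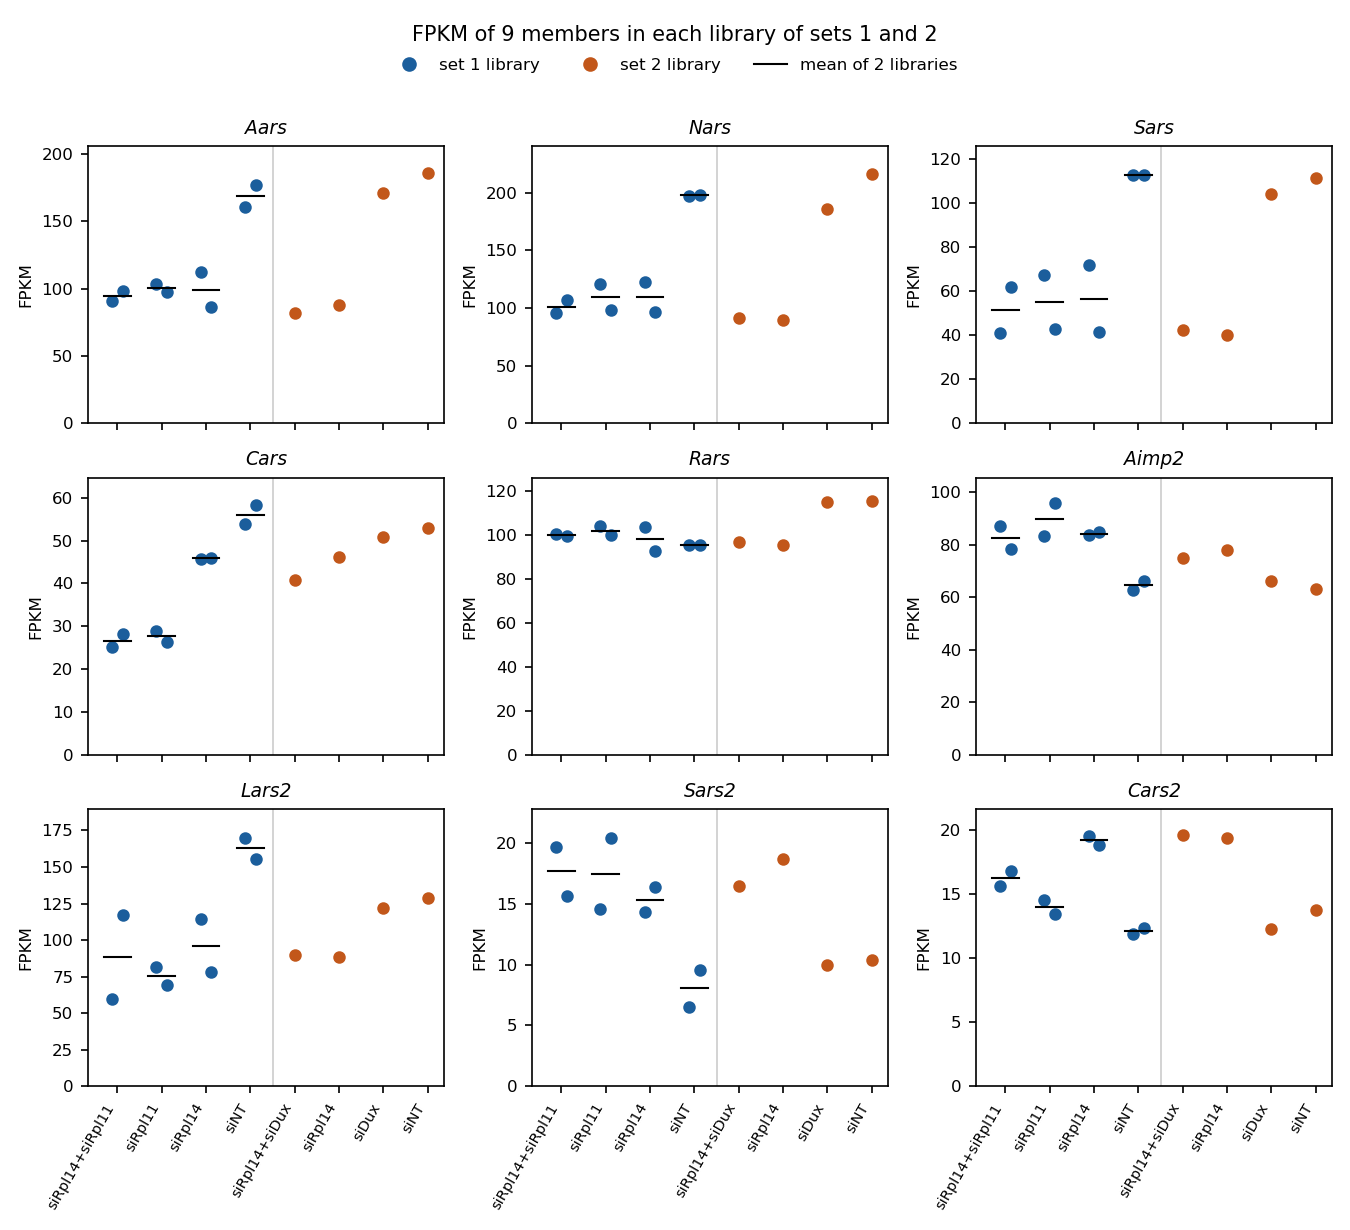
FPKM of 9 of the genes in each library of set 1 (blue) and set 2 (orange), by siRNA. Each point is a library and each bar is the mean of 2 libraries. Aars, Nars and Sars are lower in each library with siRpl14 or siRpl11 than in the siNT libraries, Cars is lowest where siRpl11 was given, Rars stays within a narrow band in set 1 and is lower with siRpl14 than with siNT in set 2 (95.3 and 116 FPKM), and Sars2 and Cars2 run the other way.

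Of the 3 scaffold genes of the multisynthetase complex, Aimp2 rose in every knockdown group of set 1. It was at 83.5 and 84.8 FPKM with siRpl14, 83.4 and 96.1 FPKM with siRpl11 and 87.2 and 78.3 FPKM with both, against 62.8 and 66.2 FPKM with siNT, with no overlap between knockdown and siNT libraries. Its log2 fold change was 0.38 ± 0.11 with siRpl14 (adjusted p = 0.0317), 0.47 ± 0.11 with siRpl11 (adjusted p = 0.0115) and 0.35 ± 0.11 with both (adjusted p = 0.032) by limma. The call with siRpl14 did not hold under quantile normalization (adjusted p = 0.051), nor did that with both siRNAs (adjusted p = 0.0658). Every call was lost without replicate 1 of siNT, with an adjusted p of up to 0.205 over the libraries left out.

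Eef1e1, a small scaffold protein also known as AIMP3, stood at 79.3 and 77.9 FPKM with siRpl14, 101 and 99.3 FPKM with siRpl11 and 84.7 and 90.8 FPKM with both, against 81.5 and 80.5 FPKM with siNT. The siRpl11 libraries were the highest and the siRpl14 libraries lay just under the siNT libraries. It rose with siRpl11 by 0.30 ± 0.088 (limma, adjusted p = 0.0264). After quantile normalization this call was lost (adjusted p = 0.0631). Aimp1, which binds tRNA within the complex, was at 102 and 92.1 FPKM with siRpl14, 118 and 108 FPKM with siRpl11 and 109 and 111 FPKM with both, against 110.2 and 102 FPKM with siNT, and its knockdown and siNT libraries overlapped. Among the 8 enzymes of the complex, 3 fell with siRpl14, 5 with siRpl11 and 5 with both, and 0 rose. Among the 12 cytosolic enzymes outside it, 6 fell with siRpl14, 7 with siRpl11 and 6 with both, and 1 rose with siRpl11 and with both. Of all genes, 13.4% fell with siRpl14, 28.4% with siRpl11 and 25% with both. The medians with siRpl14 were -0.31 inside the complex and -0.36 outside it. Split by catalytic fold, 4 of 10 class I enzymes and 5 of 10 class II enzymes fell with siRpl14, and 8 and 4 fell with siRpl11. Eprs, which charges both glutamate and proline tRNAs and fell in both comparisons, was counted in class I only.

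Summed over the 20 cytosolic genes, the level was 1750 and 1487 FPKM with siRpl14, 1665 and 1526 FPKM with siRpl11 and 1519 and 1613 FPKM with both, against 2092 and 2203 FPKM with siNT. No knockdown library reached the siNT range. The sum over the 12 reported ATF4 targets was 1028 and 858 FPKM with siRpl14, 941 and 847 FPKM with siRpl11 and 834 and 900.1 FPKM with both, against 1375 and 1457 FPKM with siNT. The sum over the other 8 cytosolic genes was 722 and 629 FPKM with siRpl14, 724 and 679 FPKM with siRpl11 and 684 and 713 FPKM with both, against 717 and 746 FPKM with siNT. Here the siRpl14 and siRpl11 libraries overlapped the siNT libraries, and the pair lay just under them.

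For the mitochondrial genes the sum depended on Lars2. With it, the sum of 16 genes was 346 and 296 FPKM with siRpl14, 284 and 269 FPKM with siRpl11 and 277 and 334 FPKM with both, against 376 and 375 FPKM with siNT. Without Lars2, a choice made after its level was seen, the sum of 15 genes was 232 and 218 FPKM with siRpl14, 202 and 199.9 FPKM with siRpl11 and 217 and 216 FPKM with both, against 206 and 219 FPKM with siNT. The siRpl11 libraries then lay just under the siNT libraries, and the other knockdown groups overlapped them. The ratio of the cytosolic sum to this mitochondrial sum was 7.55 and 6.83 with siRpl14, 8.24 and 7.63 with siRpl11 and 7 and 7.46 with both, against 10.1 and 10 with siNT. With Lars2 kept, the ratio was 5.06 and 5.03 with siRpl14, 5.49 and 4.84 with both, and 5.56 and 5.88 with siNT. With siRpl11 it was then 5.87 and 5.67, which overlapped siNT. In set 3 the ratio without Lars2 also overlapped, at 10.5 and 8.69 with siRpl14, against 15.7 and 8.78 with siNT.

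**Figure D3:**
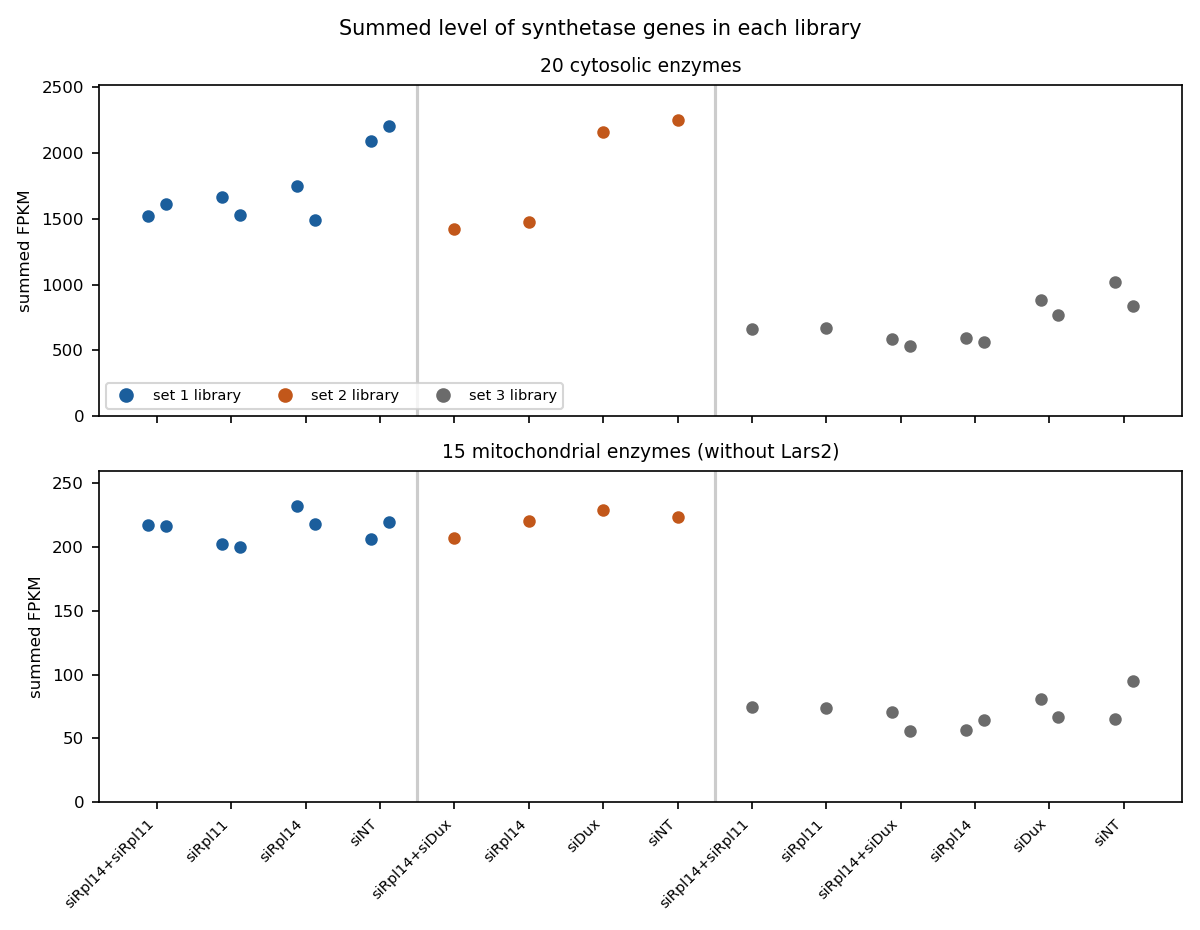
Summed FPKM of the 20 cytosolic genes (top) and of 15 mitochondrial genes without Lars2 (bottom) in each of the 22 libraries, by set and siRNA. The cytosolic sum is lower in libraries with siRpl14 or siRpl11 than in siNT libraries of their set (1487 to 1750 FPKM against 2092 and 2203 FPKM in set 1), and the mitochondrial sum of set 1 stays between 199.9 and 232 FPKM.

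Set 2 repeated siRpl14 in single libraries and added siDux, without replicates and so without a test. The log2 ratio of siRpl14 over siNT was below -0.5 for 10 of 20 cytosolic genes and above 0.5 for 0, where 16.1% of all genes were below and 17.6% above. Of the 12 reported ATF4 targets 9 were below -0.5, with a median of -0.75. With siDux added to siRpl14, 10 cytosolic genes were again below -0.5 of siNT, where 16.7% of all genes were below and 19.4% above. With siDux alone, 0 members passed either limit, as did 0.695% of all genes downwards and 0.678% upwards, and between siRpl14 with siDux and siRpl14 alone 0 members did, where 1.22% and 2.23% of all genes did.

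Sars in set 2 stood at 39.9 FPKM with siRpl14 and 42.3 FPKM with siRpl14 and siDux, against 104 FPKM with siDux and 111 FPKM with siNT, so both libraries with siRpl14 were low and both without it were high. Nars showed the same split, at 89.9 FPKM with siRpl14 and 91.5 FPKM with siRpl14 and siDux, against 186 FPKM with siDux and 216 FPKM with siNT. For Cars2 the order was turned round, at 19.4 FPKM with siRpl14 and 19.6 FPKM with siRpl14 and siDux, against 12.3 FPKM with siDux and 13.8 FPKM with siNT. Lars2 was at 88.2 FPKM with siRpl14 and 90.1 FPKM with siRpl14 and siDux, against 122 FPKM with siDux and 129 FPKM with siNT.

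All 13 members called with siRpl14 in set 1 had the same sign in set 2, as did 97.8% of all genes called there. A joint fit of sets 1 and 2, with 3 libraries of siRpl14 and 3 of siNT and the set as a term, called 22 members in place of 13, where 25.9% of the 12375 genes fitted rose and 21.8% fell. It called 4 higher (Cars2, Rars2, Sars2 and Aimp2) and 18 lower, among them 11 of the 12 reported ATF4 targets, the exception being Wars. Of the 8 other cytosolic enzymes 2 were lower, Kars and Vars (limma, adjusted p = 0.0207 and 0.0288). The mitochondrial Aars2, Iars2, Lars2, Tars2 and Vars2 were lower in that fit too. Cars then passed with -0.25 (limma, adjusted p = 0.0341).

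Set 3 had wider spread between replicates and few calls of any kind. With siRpl14, Aimp2 was the only member called, where 0.66% of all 13189 genes passed. Aimp2 was at 356 and 483 FPKM with siRpl14 and 459 and 447 FPKM with siRpl14 and siDux, against 220 and 203 FPKM with siDux and 181 and 144 FPKM with siNT. These 4 libraries with siRpl14 were above these 4 without it. The single set 3 library with siRpl14 and siRpl11 was at 237 FPKM, and the single siRpl11 library was at 215 FPKM. The first of these was above every library without siRpl14, but close to the siDux libraries and far below the siRpl14 libraries. The log2 fold change was 1.36 ± 0.19 for siRpl14 over siNT (limma, adjusted p = 0.0352) and 1.48 ± 0.19 for siRpl14 with siDux over siNT (adjusted p = 0.0156), where 1.02% of all genes passed. The first call was lost when any library was left out, the second when either library of its own groups was, and both with plain empirical Bayes (adjusted p = 0.184 and 0.119).

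Among the 20 cytosolic genes of set 3, 12 had both siRpl14 libraries below both siNT libraries and 0 above, where 22.4% of all genes were below without overlap and 18.5% above. With siRpl14 and siDux 13 were below, where 23.6% of all genes were. The cytosolic median log2 fold change was -0.57 with siRpl14, -0.52 with siRpl14 and siDux, and -0.18 with siDux, and that of all genes was -0.049, -0.073 and 0. The 15 mitochondrial genes tested in set 3 also had medians below that of all genes, at -0.42 with siRpl14 and -0.33 with siRpl14 and siDux, unlike their 0.12 with siRpl14 in set 1; with siDux the median was -0.041. Nars was at 49.7 and 65.6 FPKM with siRpl14 and 73.3 and 53.1 FPKM with siRpl14 and siDux, against 142 and 91.8 FPKM with siDux and 131 and 128 FPKM with siNT. Its log2 fold change of -1.17 ± 0.28 with siRpl14 did not pass (limma, adjusted p = 0.143), nor did the -1.55 ± 0.38 of Yars (adjusted p = 0.155). With siDux against siNT 0 members passed in limma, 0 had an unadjusted p under 0.05 (5% of all genes did), and 0.00758% of all genes passed. Between siRpl14 with siDux and siRpl14 alone 0 members passed in limma, 1 had an unadjusted p under 0.05 (6.78% of all genes did), and 0.0152% of all genes passed. Between siRpl14 with siDux and siDux alone 0 members passed, 6 had an unadjusted p under 0.05 (12.9% of all genes did), and 0.5% of all genes passed. The test of whether the effects of siRpl14 and siDux add up called 0 members, with 1 at an unadjusted p under 0.05 (5.3% of all genes), and 0.0152% of all genes passed.

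Of the 13 members called with siRpl14 in set 1, 12 had the same sign in set 3, where 74% of all genes called in set 1 did, and the exception was Rars2 (-0.42). Sars2 was at 11.8 and 6.85 FPKM with siRpl14, against 2.04 and 0 FPKM with siNT. It was also at 4.49 and 6.64 FPKM with siDux and at 3.23 and 0 FPKM with siRpl14 and siDux. Its libraries with and without siRpl14 thus overlapped. Cars2 was at 5.95 and 0 FPKM with siRpl14, against 1.98 and 0 FPKM with siNT, so the signs of both genes rest on low values. In the single libraries of set 3, the log2 ratio over the siNT mean was below -0.5 for 10 of 20 cytosolic genes with siRpl11 and above 0.5 for 0, where 37.7% of all genes were below and 17.7% above. With siRpl14 and siRpl11 together 9 were below, where 37.4% of all genes were below and 18.6% above. A fit of all 10 libraries of set 3, in which each of these groups is a single library assumed to vary like the others, called 0 members in limma. It called 0.0963% of all genes with siRpl11 and 0.119% with both. An unadjusted p under 0.05 was found for 3 members with siRpl11 (9.79% of all genes) and 5 with both (10.1%).

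**Figure D4:**
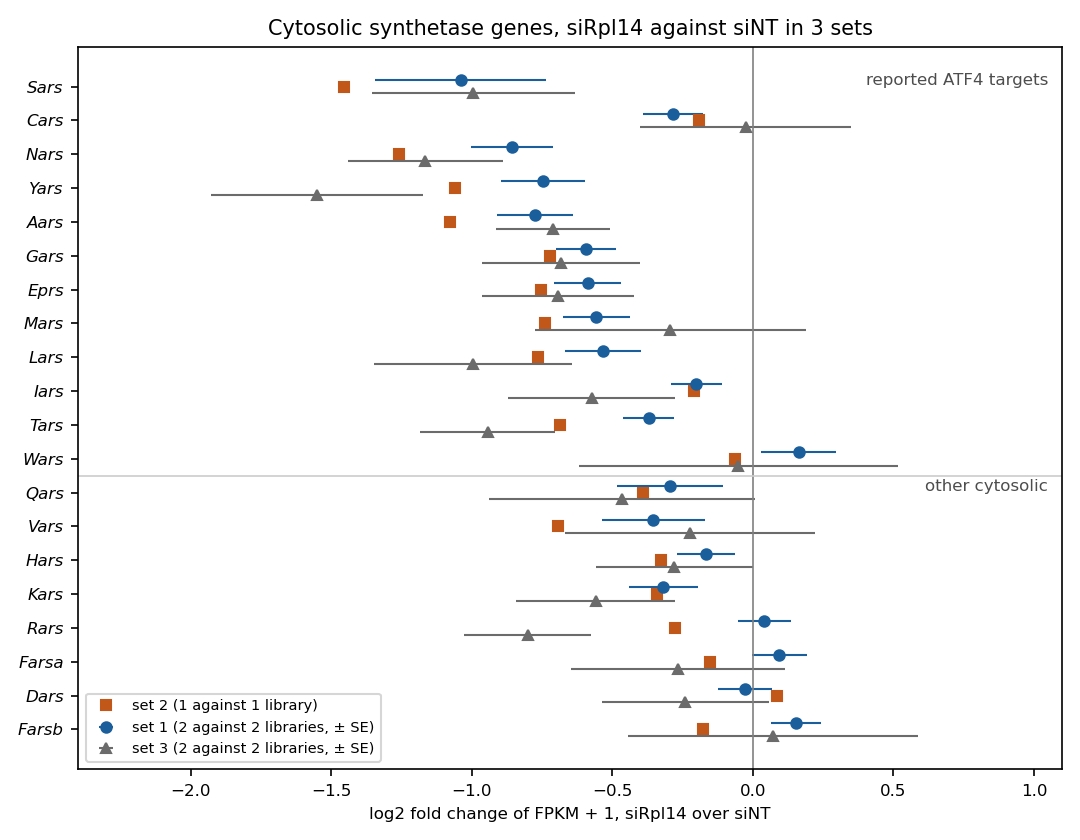
Log2 fold change of siRpl14 over siNT, on the scale of log2(FPKM + 1), for the 20 cytosolic genes in set 2 (squares, 1 library against 1), set 1 (circles with SE, 2 against 2) and set 3 (triangles with SE, 2 against 2), with the reported ATF4 targets and the other cytosolic enzymes apart. Sars was at -1.04 in set 1, -1.46 in set 2 and -0.995 in set 3, while Cars was at -0.28, -0.19 and -0.025 in these sets.

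The wider ATF4 pathway was read from a list of 30 genes of amino acid synthesis, transport and the stress response, Atf4 included. With siRpl14 in set 1, 5 rose and 12 fell, and with siRpl11 4 rose and 16 fell, with medians of -0.39 and -0.53. Of all genes, 18.1% rose and 13.4% fell with siRpl14, and 16% rose and 28.4% fell with siRpl11, so the shares of the list that rose (16.7% and 13.3%) were near or under those of all genes. Nupr1, a stress-induced chromatin protein, was at 15.5 and 6.68 FPKM with siRpl14, 16.4 and 9.995 FPKM with siRpl11 and 9.09 and 14.3 FPKM with both, against 72.2 and 66.0 FPKM with siNT, a gap far wider than that between replicates. Its log2 fold change was -2.64 ± 0.37 with siRpl14 (limma, adjusted p = 0.0036) and -2.34 ± 0.37 with siRpl11 (adjusted p = 0.00388). Pycr1, of proline synthesis, fell by 1.98 ± 0.44 with siRpl14 (adjusted p = 0.0153), and Phgdh, of serine synthesis, fell by 1.61 ± 0.48 (adjusted p = 0.0375). Asns, which makes asparagine, fell by 1.69 ± 0.28 with siRpl11 (adjusted p = 0.00448). Slc38a2, a transporter of neutral amino acids, rose by 1.42 ± 0.21 with siRpl14 (adjusted p = 0.00435).

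Atf4 itself, named after its values were seen, was at 136 and 183 FPKM with siRpl14, 141 and 192 FPKM with siRpl11 and 169.7 and 131 FPKM with both, against 141 and 169 FPKM with siNT. The groups overlapped, and the log2 fold change was 0.03 ± 0.21 with siRpl14 (limma, adjusted p = 0.92) and 0.091 ± 0.21 with siRpl11 (adjusted p = 0.742). As background, ATF4 is controlled largely at translation, and the protein was not measured here.

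Reads of neighbouring genes limit some of these values. Of the 39 genes, 15 share exon bases with another gene in the GENCODE M21 annotation (GRCm38), and the strand setting of the authors' counting is not given in the sources used here, so reads of a gene and an opposite-strand neighbour cannot be told apart. Aimp2 shares 487 bases with Eif2ak1 on the opposite strand, a gene that itself changed by 1.03 ± 0.15 with siRpl14 (limma, adjusted p = 0.00402). Aars shares 1326 bases with Exosc6 on the same strand, which changed by 0.51 ± 0.17 (adjusted p = 0.0492), against the fall of Aars. Iars2 shares 2034 bases with Rab3gap2, which changed by -0.45 with siRpl11 (adjusted p = 0.0139). Cars2 shares 215 bases with Naxd, at 0.09 with siRpl14 (adjusted p = 0.595).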

How the data were processed

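RNA from 22 libraries of siRNA-treated mouse embryonic stem cells was measured by RNA-seq. The authors deposited 2 tables of FPKM values. STAR, Cuffnorm and the mm9 build are named per the submitters' processing notes; tool versions, the annotation, the strand setting and the scaling were not given in the sources used here. With FPKM alone the depth is unknown, and no counting interval or floor can be given.

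The deposited FPKM values were log-transformed with a pseudocount of 1. Genes that reached 1 FPKM in 2 libraries or more were fitted with limma 3.58.1 (R 4.3.3, statmod 1.5.0; trended, robust empirical Bayes), with p-values adjusted by Benjamini-Hochberg over all genes and a threshold of 0.05. Set 1 (8 libraries, 12129 genes) and the replicated groups of set 3 (8 libraries, 13189 genes) were fitted separately, each with all 4 of its groups sharing 1 estimate of the spread. All 39 members passed the filter in set 1 and 38 in set 3, where Ears2 did not. Single libraries were described by log2 ratios with a limit of 0.5. The script was tested on simulated data. Groups came from the labels and sets from the style of titles.

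Named genes were all members called against siNT in set 1 (per-library values for the 10 with the largest change in each comparison), the scaffold genes, the 4 mitochondrial enzymes that changed most with siRpl14 and with siRpl11, and up to 4 called genes of each other list. The members and lists were chosen with earlier results of these data known. Replicate numbers were not used to pair the samples in the main fits. Alternatives were the pseudocount (0.1 and 5), the filter (none, and 5 FPKM), median-ratio and quantile scaling, plain empirical Bayes, a replicate block, a joint fit of sets 1 and 2, and leaving out each library. Promoters came from RefSeq (GRCm38.p6) and were read with Python 3.11.15.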

Additional observations from a re-analysis of the deposited data

Results flagged for a closer look

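The change with siRpl14 over siNT was set beside itself in sets 3 and 1 for the 38 genes measured in both. For 5 of them every siRpl14 library of set 3 moved one way from the siNT mean and every siRpl14 library of set 1 the other way, a difference that was not tested. Farsa, the alpha subunit of the phenylalanine enzyme, had a log2 fold change of -0.27 in set 3 and 0.094 in set 1. The other 4 are mitochondrial enzymes: Hars2 had -1.13 in set 3 and 0.079 in set 1, Mars2 -1.40 and 0.37, Nars2 -2.15 and 0.16, and Yars2 -1.97 and 0.28. Nars2 was listed at 0 in both siRpl14 libraries of set 3, and Mars2 and Yars2 in replicate 1 of siRpl14. None of these values passed the test in its own set in limma.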

How the results depend on the processing

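No alternative reversed a called value of the 39 genes: over 64 called values and 1039 refits, 857 kept the call, 182 lost it and 0 changed sign, and 14 calls were kept in every refit (Aars and Cars2 with siRpl14; Aars, Cars, Eprs, Gars, Nars and Yars with siRpl11; Aars, Cars, Gars, Mars, Nars and Yars with both). With siRpl14 in set 1, Sars was lost without the filter (limma, adjusted p = 0.06). Qars, Iars2 and Lars2 with both siRNAs were likewise lost there (adjusted p = 0.0632, 0.0555 and 0.0625). The joint fit of sets 1 and 2 called 22 members with siRpl14, against 13. Quantile normalization moved the mitochondrial median to 0.164 with siRpl11 and 0.207 with both. It left 1 member called between siRpl14 and siRpl11, where 7.98% of all genes passed. Plain empirical Bayes called 0 members in set 3 for siRpl14 and 0 for siRpl14 with siDux against siNT. Of all genes, 0.273% and 0.963% passed there. Leaving out single libraries of set 1 gave 3 to 15 members with siRpl14 (lowest without replicate 1 of siNT), 6 to 22 with siRpl11 (lowest without replicate 2 of siRpl11), 6 to 22 with both (lowest without replicate 1 of the pair), 0 to 1 for siRpl14 against siRpl11, 0 to 1 for both against siRpl14, and 0 to 7 for the interaction. The cytosolic median stayed at -0.48 to -0.246 with siRpl14, -0.625 to -0.446 with siRpl11, -0.568 to -0.388 with both and -0.742 to -0.462 with siRpl14 in set 3. The mitochondrial median ran from 0.084 to 0.136, -0.072 to 0.018, -0.006 to 0.091 and, in set 3, -0.882 to -0.294. In set 3, the Aimp2 call was lost in every such refit with siRpl14 and in some with siRpl14 and siDux. Fewer of all genes passed in all of these refits. In set 1 the deviations of same-numbered libraries from their group means were correlated across genes. The correlation was 0.178 to 0.497 among siNT, siRpl11 and siRpl14 and -0.244 to -0.495 with the pair. The sign differed between groups, and the main fits did not pair libraries by number. Less of the targeted transcript was left in replicate 2 of each single knockdown and in replicate 1 of the pair, and the part of this in the correlations was not tested. A replicate block gave 12 members with siRpl14, 20 with siRpl11, 19 with both and 1 between siRpl14 and siRpl11. Of all genes, 26.3%, 39.3%, 36.7% and 8.99% passed in these comparisons. The cause of these changes was not tested. With 2 libraries a group and no counts, small changes of low genes cannot be resolved.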

Other observations

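RNA polymerase III makes tRNA. Of 20 genes of this enzyme and its factors, 6 rose and 2 fell with siRpl14 in set 1, and 5 rose and 1 fell with siRpl11, with medians of 0.31 and 0.25. Of all genes, 18.1% rose and 13.4% fell with siRpl14, and 16% rose and 28.4% fell with siRpl11. Gtf3c6, a subunit of the factor TFIIIC, was at 20.3 and 29.7 FPKM with siRpl14, 30.0 and 41.8 FPKM with siRpl11 and 43.7 and 27.7 FPKM with both, against 8.06 and 11.2 FPKM with siNT, with every knockdown library above the siNT libraries. It rose by 1.28 ± 0.28 with siRpl14 (limma, adjusted p = 0.0135) and 1.79 ± 0.28 with siRpl11 (adjusted p = 0.00371). Polr3gl, a variant subunit of the polymerase, fell by 1.15 ± 0.17 with siRpl14 (adjusted p = 0.00451) and 1.26 ± 0.17 with siRpl11 (adjusted p = 0.00292). Gtf3c1 rose by 0.86 ± 0.12 and Polr3b by 0.58 ± 0.12 with siRpl14 (adjusted p = 0.00328 and 0.0129).

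Of 15 other genes of tRNA charging and delivery, 2 rose and 0 fell with siRpl14, and 2 rose and 1 fell with siRpl11. The 13.3% that rose in each is under the 18.1% of all genes with siRpl14 and near the 16% with siRpl11. Tarsl2, a second threonine enzyme of the cytosol, was at 5.03 and 5.98 FPKM with siRpl14, 3.08 and 2.59 FPKM with siRpl11 and 3.10 and 3.14 FPKM with both, against 2.64 and 2.82 FPKM with siNT. It rose by 0.80 ± 0.14 with siRpl14 (limma, adjusted p = 0.00713), while Tars fell. Among marker genes, Otx2, a transcription factor of early differentiation, rose by 2.06 ± 0.17 with siRpl14 (limma, adjusted p = 0.000949) and 3.08 ± 0.17 with siRpl11 (adjusted p = 0.00112), and Thy1 fell by 1.19 ± 0.23 with siRpl14 (adjusted p = 0.0103). Dppa5a, Tdgf1 and Klf4 fell with siRpl14 by 0.75 ± 0.13, 0.73 ± 0.14 and 0.69 ± 0.13 (adjusted p = 0.00743, 0.0105 and 0.00839), and Sox2 rose by 0.34 ± 0.11 (adjusted p = 0.0439).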
